A study of Mus musculus with 6 samples.

Results

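Collagen is modified, folded, exported, trimmed and crosslinked by a set of proteins, and 34 genes that encode them were followed in RNA-seq of mouse Achilles tendon. They were listed by the role of their products and taken by symbol, with earlier results of these data known, and all 34 were found among the 54189 rows of the count table. Tendon came from mice at 4 weeks of age, with 1 mouse and 1 RNA-seq library for each of 3 genotypes. Control mice were Dicer fl/fl without Cre, ScxHt mice carried the ScxCre/+ knock-in with Dicer +/+, and Dicer cKO mice carried the ScxCre/+ knock-in with Dicer fl/fl. Dicer is the RNase that makes mature microRNAs. Cre is expressed here from the Scx locus, which is active in tendon and ligament cells, so cells of the tissue that never activated Scx keep their Dicer alleles, and ScxHt and Dicer cKO share 1 knock-in allele of Scx. No genotype had a second library, so how far mice of one genotype differ was not measured and no test was possible. The intervals given are 95% counting intervals, which cover the counting error of the reads only.

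A fibrillar procollagen chain enters the endoplasmic reticulum (ER), where prolines and lysines are hydroxylated, some hydroxylysines receive galactose, and chaperones and prolyl isomerases guide the folding of the triple helix. The procollagen then leaves in large carriers, proteases remove its propeptides, and lysyl oxidases start the covalent crosslinks between molecules in the fibril. Tendon depends on these steps for its tensile strength, and inherited loss of several of the enzymes gives brittle bones, lax joints or fragile skin.

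Promoters are shown first for the pair of genes with the highest ScxHt/Control ratios and the pair with the lowest Dicer cKO/Control ratios among those with an entry in the RefSeq promoter table (GRCm38.p6), which holds 23 of the 34 genes. Each runs from 250 bases before to 50 bases after the annotated start, 5′ to 3′ on the strand of the gene. Capitals mark matches on either strand to the motif ACGTG, the motif CCAAT and the motif GGGCGG. The letters ACGTG occur in sites of hypoxia and ER stress factors, CCAAT is the CCAAT box, and GGGCGG is the GC box.
P4hb promoter, chr11:120573204-120573503, minus strand: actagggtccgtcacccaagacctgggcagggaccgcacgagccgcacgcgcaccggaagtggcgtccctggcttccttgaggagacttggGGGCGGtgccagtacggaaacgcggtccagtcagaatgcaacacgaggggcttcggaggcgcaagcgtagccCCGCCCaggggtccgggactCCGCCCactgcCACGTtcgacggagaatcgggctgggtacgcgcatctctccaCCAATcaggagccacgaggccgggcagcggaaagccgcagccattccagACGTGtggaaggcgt
Fkbp7 promoter, chr2:76673049-76673348, minus strand: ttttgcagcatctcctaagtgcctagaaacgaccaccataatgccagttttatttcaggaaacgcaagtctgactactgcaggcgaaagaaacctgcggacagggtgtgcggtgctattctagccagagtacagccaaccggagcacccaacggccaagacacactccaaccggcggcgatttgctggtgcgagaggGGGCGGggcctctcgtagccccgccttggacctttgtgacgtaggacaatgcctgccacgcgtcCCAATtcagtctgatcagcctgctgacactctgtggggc
Pcolce2 promoter, chr9:95637378-95637677, plus strand: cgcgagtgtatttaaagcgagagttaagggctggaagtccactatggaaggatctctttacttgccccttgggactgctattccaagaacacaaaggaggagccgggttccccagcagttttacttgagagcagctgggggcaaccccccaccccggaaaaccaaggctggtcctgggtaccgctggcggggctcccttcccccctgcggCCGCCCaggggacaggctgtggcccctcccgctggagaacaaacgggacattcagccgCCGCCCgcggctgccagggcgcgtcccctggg
Adamts2 promoter, chr11:50601835-50602134, plus strand: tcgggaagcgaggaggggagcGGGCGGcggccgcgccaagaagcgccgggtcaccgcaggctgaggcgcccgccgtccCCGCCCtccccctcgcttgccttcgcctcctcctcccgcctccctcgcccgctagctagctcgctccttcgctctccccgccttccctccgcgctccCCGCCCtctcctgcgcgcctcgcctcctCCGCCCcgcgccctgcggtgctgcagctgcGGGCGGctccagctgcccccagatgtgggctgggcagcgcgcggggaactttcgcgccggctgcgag

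The P4hb promoter held 2 matches to ACGTG, 1 to CCAAT and 3 to GGGCGG, whereas the Fkbp7 promoter held none, 1 and 1. In the promoters of Pcolce2 and Adamts2, neither ACGTG nor CCAAT was found, and GGGCGG matched 2 and 5 times. Both strands were searched, and ACGTG matches on opposite strands may overlap each other. Of the 23 promoters, 11 held ACGTG (47.8%), against 21.8% of 27025 genes in the same table. These were 10 of the 16 genes whose proteins work in the ER (Plod3, P4ha1, P4ha2, P4hb, P3h1, Ppib, Serpinh1, Fkbp9, Fkbp14 and Mia3) and 1 of the 7 genes of secreted proteins (Adamts3). CCAAT was found in 8 of the 23 (34.8%, against 41.1%) and GGGCGG in 19 (82.6%, against 38.2%). A match describes the letters of this window and not binding of a factor. The genes of the table were not matched to the 23 by base composition or by expression. Since ACGTG and GGGCGG both contain CG, their higher shares may reflect base composition, which was not tested. No entry was found for Lox, Loxl1, Loxl2, Loxl3, Plod2, P3h2, P3h4, Fkbp10, Colgalt2, Bmp1 and Tmem38b.

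Counts per library added up to 14959399 to 16244232. Wherever 3 read counts or levels of a gene are given together, they stand in the order Control, ScxHt, Dicer cKO. Over the whole gene Dicer1 had 1919, 2025 and 1621 reads, and its Dicer cKO/Control ratio was 0.877 (0.821 to 0.938). Scx itself had 1055, 686 and 371 reads. The 8 tendon fibroblast markers held 13.1% of the Control, 11.3% of the ScxHt and 7.57% of the Dicer cKO reads, most of them from Col1a1 and Col1a2. Marker by marker the picture was less uniform. For ScxHt/Control, 5 intervals lay above 1 and 3 below, against 26.4% and 23.7% of all features with a mean normalized count above 50. For Dicer cKO/Control all 8 lay below 1, against 28.4%. Those ratios ran from 0.365 for Scx to 0.948 for Tnmd, with Mkx at 0.913. Genes of other cell types also differed. The 15 skeletal muscle markers held 1.25%, 1.08% and 2.39% of the reads. All 15 were above 1 by their intervals for Dicer cKO/Control, against 21.5% of all features. The 9 Schwann cell markers held 0.0234%, 0.0304% and 0.0752%, the 7 macrophage markers 0.0239%, 0.0450% and 0.0191%, and the 5 endothelial markers 0.0562%, 0.0410% and 0.0663%. Of the 8 cartilage and bone markers, Bglap was at 0 in every library, and the list held 0.0557%, 0.0729% and 0.0309%. The 4 adipocyte markers held 0.0699%, 0.0848% and 0.0777%, the 7 mitosis markers 0.0133%, 0.0264% and 0.0271%, and the 3 erythroid markers 0.0116%, 0.0120% and 0.0294%. The part of these cell types in the ratios of the collagen genes was not tested.

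The 34 genes together held 0.931% of the Control reads, 1.18% of the ScxHt reads and 0.705% of the Dicer cKO reads. Per length, in RPKM as deposited, their levels ran from 1.79 to 344 in the Control library with a median of 31.3, from 1.54 to 539 in ScxHt with a median of 35.3, and from 1.26 to 309 in Dicer cKO with a median of 19.1. Serpinh1, the collagen chaperone Hsp47, had the highest level in all 3 libraries, at 344, 539 and 309 RPKM. P4ha1, the main catalytic subunit of prolyl 4-hydroxylase, came next at 269, 340.4 and 254 RPKM. The crosslinking enzyme Loxl2 was the third in the Control library at 266 RPKM, and Lox was the fourth at 252 RPKM. The lowest levels were those of Adamts14, Tll1 and Colgalt2, each under 3 RPKM in every library.

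**Figure D1:**
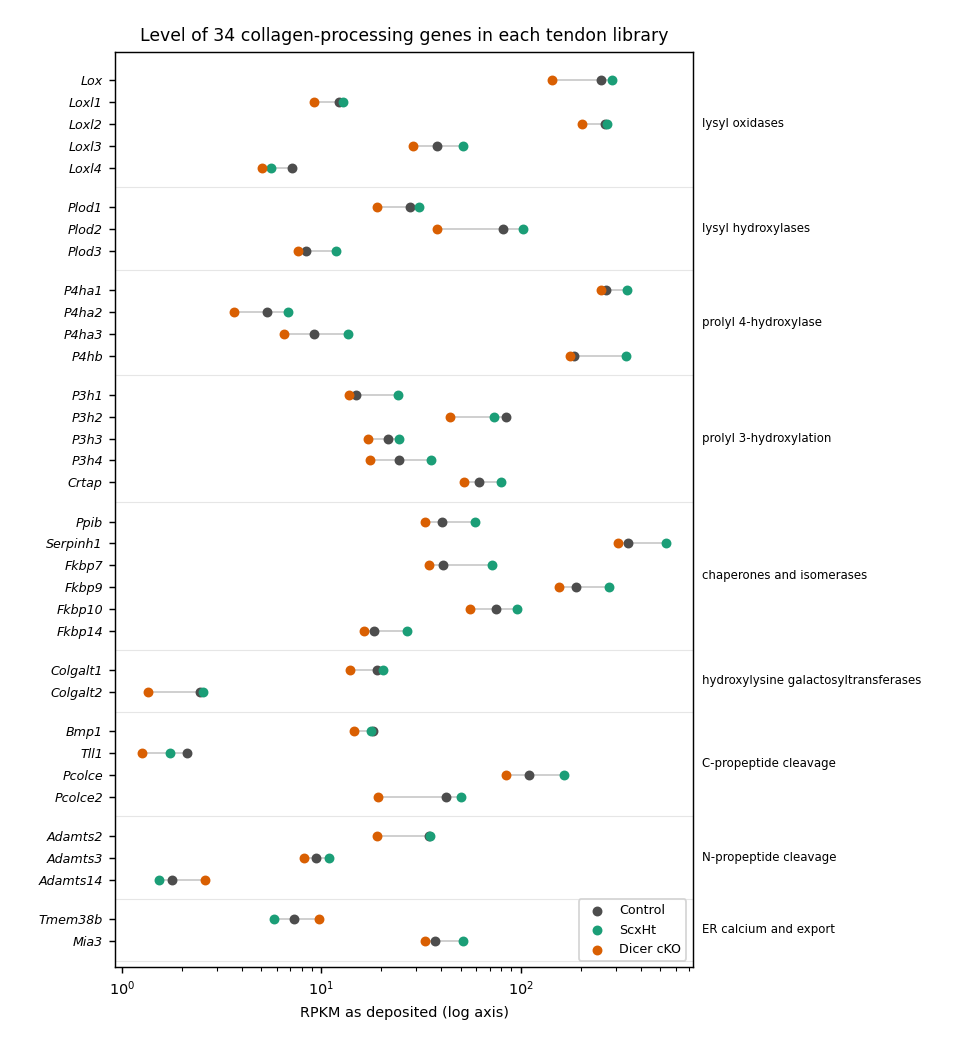
Level of the 34 genes in RPKM (x axis, logarithmic) in the Control, ScxHt and Dicer cKO libraries, 1 point per library, grouped by role. Serpinh1 is farthest to the right in every library, and the Dicer cKO point is the leftmost of its row for 32 genes, Adamts14 and Tmem38b being the other two.

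To compare Dicer cKO with Control tendon, counts were divided by size factors of the pair of libraries. Following the study's limits, a gene with a mean normalized count above 50 was called higher above a ratio of 1.67 and lower below 0.60. All 34 genes were above this minimum in every comparison. Most of the machinery had less RNA in the Dicer cKO library. A ratio below 1 was found for 32 of the 34 genes, against 54.2% of the 13504 features above the minimum, and the interval lay below 1 for the same 32, against 28.4% of all features. Intervals narrow with read depth. In this and the later counts of intervals, the features were not matched to the 34 genes by depth. Called lower were 7 of the 34, against 4.18% of all features, and none was called higher, against 3.87%. The whole interval lay below 0.60 for 5 of the 7, and those of Colgalt2 and Tll1 crossed the limit. Their median log2 ratio was -0.45, beside -0.03 over all features. In a bulk library, fewer tendon cells and less RNA per cell cannot be told apart. Total-count scaling was also tried without the muscle markers and without features above 1% of a library. Under it the ratio was below 1 for 32 genes and 7 were called lower. The median log2 ratio was -0.40, beside 0.01 over all features, and the share of all features called is not given for it. Such a scaling multiplies every ratio by the same factor, so it does not test the part of muscle cells.

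Pcolce2, an enhancer of C-propeptide cleavage, had 3186, 3679 and 1339 reads. Dicer cKO was thus low and the other two libraries lay closer together, and the ratio to Control of 0.436 (0.409 to 0.465) was the lowest of the 34. Its paralog Pcolce, with 6807, 9897 and 4833 reads, had a ratio of 0.737 (0.710 to 0.765). Bmp1, the main procollagen C-proteinase, had 2616, 2491 and 1942 reads and a ratio of 0.771 (0.727 to 0.818). The related protease Tll1 was called lower at 0.566, but its 268, 214 and 146 reads leave an interval of 0.459 to 0.695 that crosses the limit.

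Of the 3 procollagen N-proteinases, which remove the N-propeptide, only Adamts2 was called lower. It had 5270, 5172 and 2666 reads and a ratio of 0.525 (0.501 to 0.550). Adamts3, with 833, 941 and 663 reads, had a ratio of 0.827 (0.745 to 0.916). Adamts14 went the other way, with 151, 126 and 203 reads and a ratio of 1.40 (1.13 to 1.74), which is below the limit for a call.

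Among the lysyl oxidases, which oxidize lysine and hydroxylysine side chains before crosslinking, all 5 had ratios below 1 and 1 was called lower. Lox had 19679, 21890 and 10378 reads, close to each other in the Control and ScxHt libraries and lower in Dicer cKO, with a ratio of 0.548 (0.535 to 0.561). Loxl2, with 23346, 23096 and 16405 reads, had a ratio of 0.730 (0.715 to 0.744). The remaining members Loxl1, Loxl3 and Loxl4 had ratios of 0.722, 0.721 and 0.673.

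Plod2, the lysyl hydroxylase of the collagen telopeptides, had 7183, 8710 and 3077 reads and a ratio of 0.445 (0.426 to 0.464). Plod1, which hydroxylates lysines of the triple helix, had 3058, 3293 and 1924 reads and a ratio of 0.653 (0.617 to 0.692). Plod3, which also carries glycosyltransferase activity, had 616, 848 and 515 reads and a ratio of 0.868 (0.771 to 0.978). The 3 intervals did not overlap between Plod2 and the other two, or between Plod1 and Plod3. Hydroxylysine is galactosylated by Colgalt1, with 1338, 1390 and 906 reads and a ratio of 0.703 (0.646 to 0.766), and by Colgalt2, called lower at 0.522 (0.398 to 0.681) on 171, 171 and 86 reads.

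None of the prolyl 4-hydroxylase genes, whose product stabilizes the triple helix, was called. P4ha1, with 17947, 22081 and 15604 reads, and P4hb, the protein disulfide isomerase that forms the beta subunit, with 8616, 15271 and 7540 reads, had ratios of 0.903 (0.884 to 0.923) and 0.909 (0.881 to 0.937). The minor catalytic subunits lay lower, P4ha2 at 0.648 (0.564 to 0.743) and P4ha3 at 0.677 (0.584 to 0.784), on 340 and 304 reads in the Dicer cKO library.

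Prolyl 3-hydroxylation acts on a few prolines of each chain. P3h2 was the only gene of this group called lower, with 5091, 4327 and 2474 reads and a ratio of 0.505 (0.481 to 0.530). P3h1, Crtap and Ppib, which form 1 complex, had ratios of 0.882 (0.802 to 0.971), 0.806 (0.751 to 0.865) and 0.782 (0.733 to 0.835). P3h3 and P3h4, which associate with lysyl hydroxylase, had ratios of 0.762 (0.702 to 0.827) and 0.683 (0.614 to 0.760). An antisense gene, Gm4524, overlaps 28.4% of the exon bases of P3h2, and Snx22 overlaps 25.0% of those of Ppib on the opposite strand. Since the strand setting of the counting is not given in the sources used here, reads of these partners cannot be told apart.

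The chaperones and isomerases of the ER lay closest together. Serpinh1 had 13662, 20749 and 11299 reads and a ratio of 0.859 (0.838 to 0.881). The prolyl isomerases Fkbp7, Fkbp9, Fkbp10 and Fkbp14 had ratios of 0.815, 0.786, 0.702 and 0.846, of which that of Fkbp10 had the interval farthest from 1 (0.667 to 0.740). Fkbp10, on chromosome 11 from 100415697 to 100424824, and P3h4, from 100408456 to 100414836 on the other strand, lie head to head with 861 bases between them. Their Dicer cKO/Control ratios were 0.702 and 0.683, with overlapping intervals. Mia3, the ER receptor that loads procollagen into carriers, had 2685, 3581 and 2187 reads and a ratio of 0.846 (0.799 to 0.895). Tmem38b, an ER potassium channel that supports calcium release, was the second gene above 1, with 454, 350 and 557 reads and a ratio of 1.27 (1.12 to 1.45).

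**Figure D2:**
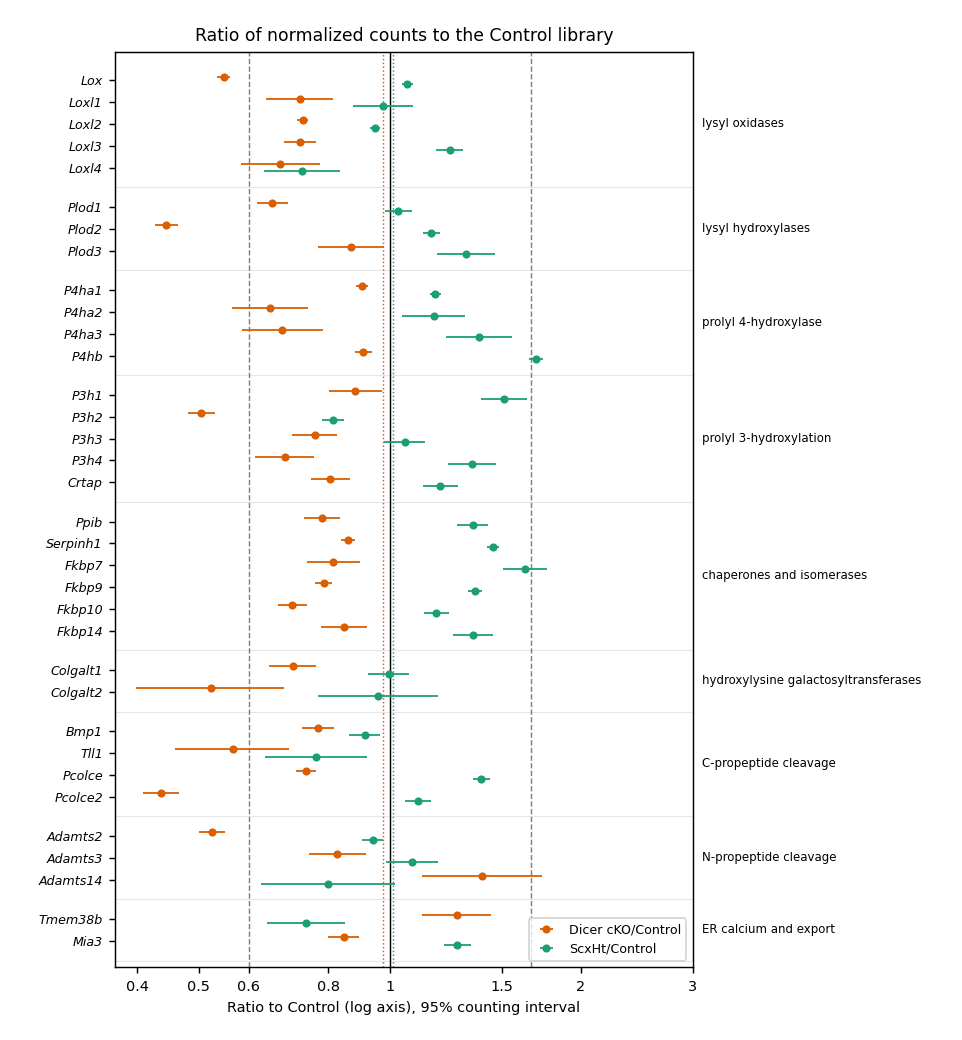
Ratio of normalized counts to the Control library (x axis, logarithmic) for Dicer cKO and ScxHt, with 95% counting intervals as bars, dashed lines at 0.60 and 1.67 and dotted lines at the median of all features. Every Dicer cKO point except Adamts14 and Tmem38b is left of 1, and the ScxHt points of the prolyl 4-hydroxylases and of the chaperones and isomerases are all right of 1.

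ScxHt and Control mice both have working Dicer, and their comparison used the same Control library. Genes of hydroxylases and chaperones in the ER mostly had ratios above 1, and genes of secreted enzymes lay on both sides of 1. P4hb, with a ratio of 1.70 (1.65 to 1.74), was the 1 gene of 34 called higher, against 3.05% of the 13563 features above the minimum, and none was called lower, against 4.73%. The interval of P4hb crosses the limit of 1.67, so no gene was higher with its whole interval. The interval lay above 1 for 20 genes, against 26.4% of all features, and below 1 for 7, against 23.7%. A ratio below 1 was found for 11 genes (47.4% of all features), and the median log2 ratio of the 34 was 0.22, beside 0.02 over all features. The interval lay above 1 for all 4 prolyl 4-hydroxylase genes and all 6 chaperones and isomerases. Fkbp7, with 986, 1679 and 774 reads, had the highest ratio of the latter at 1.63 (1.51 to 1.77), and Serpinh1 had 1.46 (1.42 to 1.49). P3h1 had a ratio of 1.51 (1.39 to 1.65), P4ha3 one of 1.38 (1.23 to 1.56) and Plod3 one of 1.32 (1.19 to 1.47).

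P3h2 stood apart from the other genes of prolyl 3-hydroxylation, at 0.814 (0.782 to 0.848). Lox, Plod2 and Pcolce2, all called lower for Dicer cKO/Control, had ScxHt/Control ratios of 1.07 (1.05 to 1.09), 1.16 (1.13 to 1.20) and 1.11 (1.05 to 1.16). Pcolce was the highest of the secreted proteins at 1.39 (1.35 to 1.44), and the lowest ratio of all was that of Loxl4 at 0.728 (0.635 to 0.835), with 491, 373 and 318 reads. Tmem38b and Tll1 followed at 0.739 (0.641 to 0.851) and 0.765 (0.636 to 0.919). Loxl1, Loxl2, Colgalt1, Colgalt2 and Adamts2 had ratios between 0.940 and 0.996, which all turned to above 1 under total-count scaling, a scaling that moved the median log2 ratio of all features from 0.02 to 0.12. The macrophage markers were higher in the ScxHt library as well, with 6 of 7 called higher, against 3.05% of all features. They were not the only markers that differed. Of the 7 mitosis markers, 6 passed the minimum and all 6 were called higher. Their median log2 ratio was 1.19, beside 0.78 for the macrophage markers. All 5 endothelial markers had intervals below 1, against 23.7% of all features. The part of these marker lists in the ratios of the collagen genes was not tested.

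Against ScxHt, which carries the same ScxCre knock-in allele, the Dicer cKO library had the most called genes. Called lower were 16 of the 34 genes, against 5.68% of the 13555 features above the minimum, and 2 were called higher, against 7.67%. The whole interval lay below 0.60 for 9 of the 16, while those of Loxl3, P4ha2, P3h1, Ppib, Serpinh1, Fkbp9 and Colgalt2 crossed it. Ratios were below 1 for 32 genes (53.9% of all features), with intervals below 1 for 31 (30.5%) and above 1 for 2 (24.8%). For Dicer cKO/Control the interval lay above 1 for the same pair of genes, against 21.5% of all features. The median log2 ratio was -0.70, beside -0.03 over all features. Since both comparisons with Dicer cKO and both with ScxHt reuse libraries, the 3 sets of ratios are not independent. Plod2 was the lowest at 0.389 (0.373 to 0.406), followed by Pcolce2 at 0.401 (0.376 to 0.427) and P4ha3 at 0.498 (0.434 to 0.572). Fkbp7, P3h4 and Lox had ratios of 0.508, 0.515 and 0.522, and Pcolce and P4hb of 0.538 and 0.544. Serpinh1 lay at the limit, with a ratio of 0.60 (0.586 to 0.614), and was not called with TMM scaling, at 0.606. Adamts14, at 1.78 (1.41 to 2.24), and Tmem38b, at 1.75 (1.53 to 2.01), were the 2 genes called higher, and the intervals of both cross the limit of 1.67. Loxl4 was the 1 gene whose interval held 1, at 0.939 (0.806 to 1.09).

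By normalized count, 23 of the 34 genes followed the order Dicer cKO below Control below ScxHt, an order found in 23.1% of 13532 features. Another 9 (Loxl1, Loxl2, Loxl4, P3h2, Colgalt1, Colgalt2, Bmp1, Tll1 and Adamts2) had Dicer cKO below ScxHt below Control, an order of 16.2% of features. Adamts14 and Tmem38b had ScxHt below Control below Dicer cKO, an order of 20.2% of features. Control and ScxHt, neighbours in all of these orders, did not differ beyond the counting interval for 7 genes (Loxl1, Plod1, P3h3, Colgalt1, Colgalt2, Adamts3 and Adamts14).

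The split between the ER and the outside of the cell was made after the values were seen and is a description. Among the 22 genes whose proteins work in the ER, the median log2 ratio to Control was -0.35 in Dicer cKO and 0.31 in ScxHt, and against ScxHt the Dicer cKO median was -0.73. Among the 12 genes of secreted proteins the same 3 medians were -0.47, -0.06 and -0.41. Over all features they were -0.03, 0.02 and -0.03. The interval of the ScxHt/Control ratio lay above 1 for 16 and below 1 for 2 of the 22, and above 1 for 4 and below 1 for 5 of the 12, against 26.4% above and 23.7% below over all features. For Dicer cKO/Control, 3 of the 22 and 4 of the 12 were called lower, against 4.18% of all features, and for Dicer cKO/ScxHt 11 and 5, against 5.68%. Counting only whole intervals below 0.60, these became 2 and 3 for the former and 5 and 4 for the latter. Plod2 and Pcolce2 were the lowest of their compartments against both libraries.

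**Figure D3:**
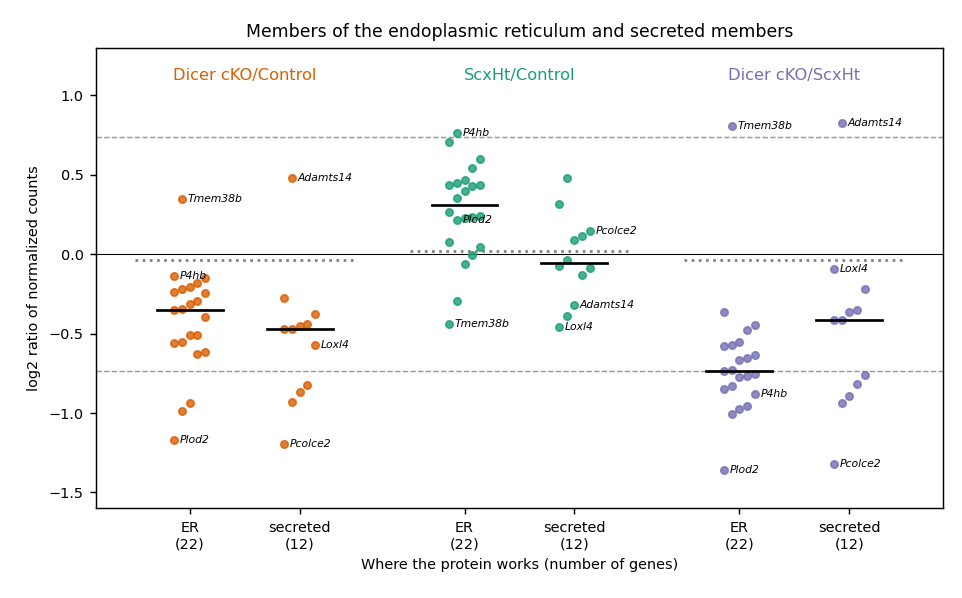
The log2 ratio (y axis) of the 22 ER genes and the 12 genes of secreted proteins in the 3 comparisons, 1 point per gene, with black bars at the group medians, dotted lines at the median of all features and dashed lines at the log2 of 0.60 and 1.67. For ScxHt/Control the ER median is 0.31 and the secreted median -0.06, and Tmem38b and Adamts14 lie above the rest in both comparisons with Dicer cKO.

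Many of these steps are served by several related genes, and their shares of the summed RPKM of a family differed between libraries. Plod2 made up 69.4%, 70.5% and 58.9% of the lysyl hydroxylase RPKM. Relative to Plod2, the Dicer cKO/Control ratio was 1.47 (1.37 to 1.58) for Plod1 and 1.95 (1.72 to 2.21) for Plod3. These ratios are formed within each library and need no scaling between libraries. In the lysyl oxidase family, Lox held 43.8%, 45.9% and 37.0% and Loxl2 46.2%, 43.1% and 52.0%, so that Loxl2 was ahead in the Control and Dicer cKO libraries and Lox in ScxHt. Relative to Loxl2, Lox was 0.750 times Control (0.728 to 0.774) in Dicer cKO. Loxl1 and Loxl3, set against Loxl2 in the same way, had ratios of 0.989 (0.876 to 1.12) and 0.989 (0.930 to 1.05), whose intervals hold 1.

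P3h2 held 69.8%, 60.2% and 59.0% of the prolyl 3-hydroxylase RPKM, while P3h1 held 12.3%, 19.8% and 18.2%. P3h1 relative to P3h2 was above Control in both libraries with ScxCre, 1.86 times (1.70 to 2.04) in ScxHt and 1.75 times (1.57 to 1.94) in Dicer cKO. Adamts2 held 75.6%, 73.7% and 63.9% of the N-proteinase RPKM, and Adamts14 3.89%, 3.23% and 8.74%. The relative Dicer cKO/Control ratio to Adamts2 was 1.57 (1.41 to 1.76) for Adamts3 and 2.66 (2.14 to 3.30) for Adamts14. Pcolce2 held 27.9%, 23.5% and 18.6% of the enhancer RPKM, with a ratio relative to Pcolce of 0.592 (0.550 to 0.637). Apart from the lysyl oxidases, the leading gene of each family was the same in every library. P4ha1 held 94.4% to 96.2% of the alpha subunit RPKM, Fkbp9 58.5% to 59.4% of the isomerase RPKM, Colgalt1 88.5% to 91.2% and Bmp1 89.5% to 92.1% of their families.

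**Figure D4:**
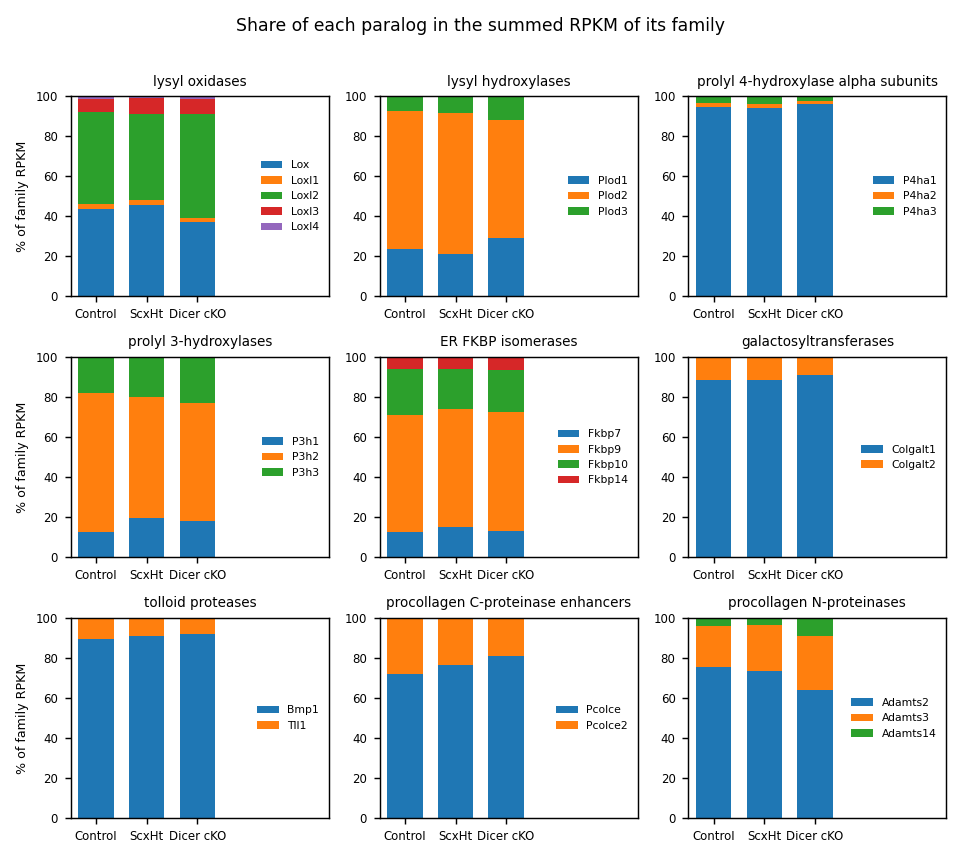
Share in percent (y axis) of each paralog in the summed RPKM of its family in the Control, ScxHt and Dicer cKO libraries, 1 panel per family and bars starting at 0. The share of Plod2 is 69.4% in Control and 58.9% in Dicer cKO, and that of Adamts2 is 75.6% and 63.9%.

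The main substrate of these enzymes is type I collagen. Col1a1 had 1261322, 925996 and 658168 reads, and its ratio to Control was 0.542 (0.540 to 0.543) in Dicer cKO and 0.704 (0.702 to 0.705) in ScxHt. Col1a2 had 708695, 658387 and 391822 reads, with ratios of 0.574 (0.572 to 0.576) and 0.890 (0.887 to 0.893). Expressed per read of Col1a1 and Col1a2 in the same library, most of the 34 genes had a Dicer cKO/Control ratio above 1. The interval of this ratio lay above 1 for 27 of the 34, against 91.5% of all features above the minimum, and below 1 for 4, against 0.918%. The median ratio was 1.33, beside 1.76 over all features. The genes below 1 were Pcolce2 at 0.789 (0.740 to 0.841), Plod2 at 0.804 (0.770 to 0.838), P3h2 at 0.912 (0.869 to 0.957) and Adamts2 at 0.949 (0.906 to 0.994). The interval held 1 for Lox, at 0.989 (0.966 to 1.01), and for Colgalt2 and Tll1, at 0.944 (0.728 to 1.22) and 1.02 (0.835 to 1.25). Serpinh1 had 6.93 reads per 1000 type I collagen reads in Control and 10.8 in Dicer cKO, and its ratio was 1.55 (1.51 to 1.59).

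For ScxHt/Control the interval per type I collagen read lay above 1 for 30 of the 34 genes, against 67.8% of all features, and below 1 for none, against 5.82%. P4hb was the highest at 2.20 (2.15 to 2.26), from 4.37 to 9.64 reads per 1000 type I collagen reads. Fkbp7 followed at 2.12 (1.96 to 2.29) and P3h1 at 1.96 (1.81 to 2.13). The median was 1.51, beside 1.31 over all features. These ratios hold for type I collagen, whose 2 chains had ratios to Control below 1 in ScxHt. Of 9 fibrillar collagen chains, 5 had a ScxHt/Control interval above 1 and 4 below, against 26.4% and 23.7% of all features. Col3a1, for example, was at 1.37 (1.36 to 1.38). For Dicer cKO/ScxHt, 6 genes were above 1 by their interval, against 67.6% of all features, and 22 below, against 6.73%, with a median of 0.844 beside 1.34 over all features.

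**Figure D5:**
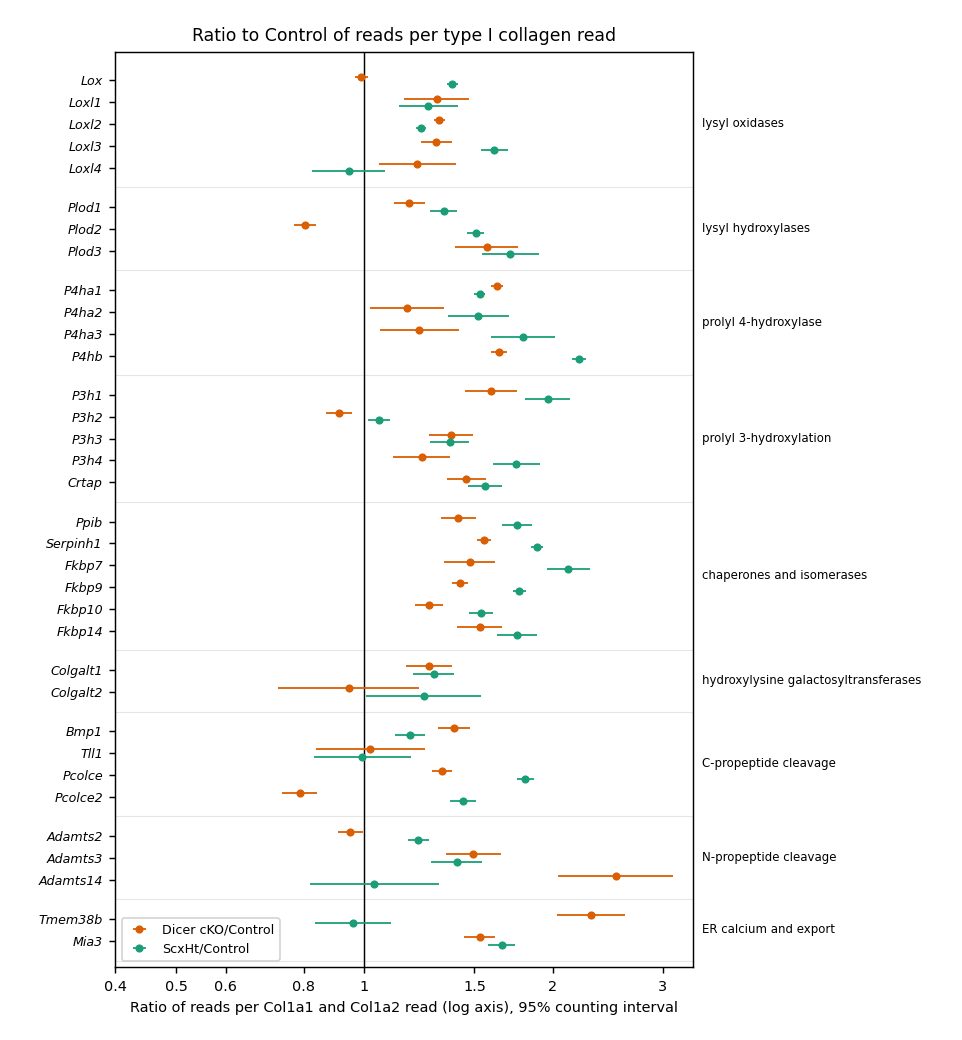
Ratio to Control of the reads of each gene per read of Col1a1 and Col1a2 in the same library (x axis, logarithmic), with 95% counting intervals as bars. For Dicer cKO, Pcolce2, Plod2, P3h2 and Adamts2 lie left of 1 with their whole interval, and Adamts14 at 2.52 and Tmem38b at 2.30 are farthest to the right.

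Other genes of the pathway give the setting of these values. Of 9 fibrillar collagen chains, 3 were called lower for Dicer cKO/Control (4.18% of all features) and none higher, namely Col1a1, Col1a2 and Col5a1 at 0.553 (0.537 to 0.570), and the median log2 ratio was -0.53. Of 9 matrix genes whose products accompany collagen fibrils, 5 were called lower, against the same 4.18%. These were Fmod at 0.455, Comp at 0.461, Tnxb at 0.490, Fn1 at 0.505 and Dcn at 0.542, while Sparc, with the most reads of this list, had a ratio of 0.677 (0.673 to 0.680). Postn, named after its values were seen, was the 1 gene of this list above 1, at 1.31 (1.27 to 1.36). Of 18 general ER folding genes, 17 passed the minimum and none was called for Dicer cKO/Control, with a median log2 ratio of -0.17. Against Control, the ScxHt median of this list was 0.55 on the log2 scale. For this comparison 16 of 18 intervals lay above 1, against 26.4% of all features, and 3 genes were called higher, against 3.05%. Calr, the lectin chaperone with the most reads of this list, had ratios to Control of 0.879 (0.860 to 0.899) in Dicer cKO and 1.46 (1.43 to 1.49) in ScxHt. The collagen-specific chaperones and isomerases, at medians of -0.32 and 0.44, and the general ones thus had medians of the same sign in both comparisons.

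Of 13 genes of COPII export, the coat that buds carriers from the ER, none was called for Dicer cKO/Control, and the median log2 ratio was -0.21. Sec31a, with the most reads, had a ratio of 0.854 (0.817 to 0.892). Among 14 regulators, 2 were called lower, against 4.18%. Creb3l1, an ER-bound transcription factor that activates type I collagen genes, had 1980, 1785 and 897 reads and a ratio of 0.470 (0.434 to 0.509). Ccn2, a matrix protein induced by TGF-beta signalling, had 25891, 30244 and 14955 reads and lay at the limit with a ratio of 0.60 (0.588 to 0.612). The other 12 regulators were not called, and the median of the list was -0.19. Of 7 genes that supply copper, ascorbate or zinc, 6 passed the minimum and none was called, with a median of -0.23 and Slc39a13, a zinc transporter, at 0.854 (0.805 to 0.906). Of 5 collagen turnover genes none was called, with a median of -0.38 and the collagen receptor Mrc2 at 0.630.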

How the data were processed

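Total RNA of Achilles tendon from 1 mouse per genotype was sequenced by the authors, who per the labels and the study's methods trimmed adaptors, mapped reads to GRCm38 (mm10) with TopHat and Bowtie2 and assigned raw counts per gene with HTSeq. Versions, annotation release and strand setting are not given in the sources used here. The counts were deposited without normalization, and the RPKM values deposited by the authors scale them by feature length and library total. Of 54189 rows, 463 repeat an earlier row and were kept. Small RNA libraries were not used here.

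Counts were divided by DESeq2 1.42.0 median-of-ratios size factors of each pair of libraries (R 4.3.3), with a minimum mean of 50, an upper limit of 1.67 and a lower limit of 0.60, and no dispersion model, shrinkage or p-value. Intervals of ratios are exact 95% Clopper-Pearson intervals. Those of ratios relative to a paralog or to type I collagen are log-normal approximations. They cover counting error only and treat reads as independent. PCR reads without molecular identifiers are not independent molecules, so the intervals may be too narrow even for that error. Calculations were tested on simulated data and used scipy 1.17.1, pandas 2.3.3 and numpy 2.4.6 in Python 3.11.15, and figures used matplotlib 3.10.9. Gene positions came from GENCODE M21 and promoters from RefSeq, both GRCm38. Where 5 genes (Loxl3, Plod3, P3h2, Ppib and Colgalt1) share over 10% of exon bases with another gene, reads could be split or lost.

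All 34 genes are named. Of the other pathway lists, the gene with the most Control reads and those called for Dicer cKO/Control are named. Genes, lists and markers were chosen with earlier results of these data known. Other settings tried were TMM scaling by edgeR 4.0.16, total counts with and without abundant and muscle genes, size factors over 3 libraries, minimum means of 10, 200 or none, limits of 2 and 0.5, a pseudocount of 1, intervals wholly past the limit, and 5 fibrillar chains as the collagen reference.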

Additional observations from a re-analysis of the deposited data

How the results depend on the processing

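The number of genes called and their median kept their direction under every scaling tried, and for Dicer cKO/Control 7 of the 34 genes were called lower under each scaling. With limits of 2 and 0.5, the count of lower genes became 2 for Dicer cKO/Control and 3 for Dicer cKO/ScxHt, and no gene was called higher in ScxHt/Control (0) or Dicer cKO/ScxHt (0). With the whole interval past the limit, 5 genes were lower for Dicer cKO/Control, 0 genes were higher for ScxHt/Control, and 0 higher and 9 lower for Dicer cKO/ScxHt. A minimum mean of 200 left 1 higher gene for Dicer cKO/ScxHt, as fewer genes were tested. It also took away the lower calls of Colgalt2, whose mean was 128 for Dicer cKO/Control and 127 for Dicer cKO/ScxHt. Total-count scaling gave 2 higher genes for ScxHt/Control, Fkbp7 at 1.75 being the second, and a median log2 ratio of 0.33. Under it the ScxHt/Control ratio of 5 genes (Loxl1, Loxl2, Colgalt1, Colgalt2 and Adamts2) turned from below to above 1, and that of Colgalt1 did so too without features above 1% of a library. No gene changed side of 1 in the other comparisons. The share of all features called is not given for these other settings, so their counts cannot be set against a background. With 1 library per genotype, no library could be left out, no paired analysis was possible because each genotype has 1 library, and the spread within a genotype is unknown.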
